A study of Rattus norvegicus with 4 samples.

Results

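The enzymes of the tricarboxylic acid (TCA) cycle, with those that feed pyruvate into it, and the enzymes of mitochondrial fatty acid oxidation were described as one group of 38 genes. Their probes were found through the RefSeq accession printed for each non-control probe of the arrays, matched to 38 rat gene symbols. All 38 genes had at least 1 probe, 45 probes in total, out of 16581 genes that could be named on the array. Of these genes, 21 belong to the TCA cycle and its neighbours, and 17 to fatty acid oxidation.

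RNA came from NR8383 cells, a macrophage cell line from rat lung lavage grown as a mix of floating and attached cells and used after 20 passages, per the labels. The cells had been seeded 48 h earlier in flasks and were exposed for 4 h to NH2-functionalized carbon nanotubes, named NRCWE049, at 1.2 cm² of nanotube surface per cm² of culture. One group of 4 biological replicates was analysed, 1 array each, and every replicate was exposed. The study design also has unexposed cells, whose arrays are not analysed here. All values are thus those of exposed cultures, and none shows an effect of the nanotubes. A single cell line stands for the alveolar macrophage here, so differences between animals are not represented.

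The TCA cycle oxidises acetyl groups to carbon dioxide in the mitochondrial matrix and hands the electrons to the respiratory chain. Acetyl-CoA reaches it from pyruvate, through the pyruvate dehydrogenase complex, and from fatty acids, which the carnitine shuttle brings into the matrix and beta-oxidation shortens. Macrophages are known to rewire this metabolism on activation. In cells stimulated through inflammatory receptors, Acod1 diverts aconitate into itaconate, whereas alternatively activated cells lean on fatty acid oxidation.

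Of the 38 genes, 37 (97.4%) were well above background on 4 of 4 arrays, compared with 52.5% of all named genes. Acod1 was the exception, and it was well above background on 0 of 4 arrays. The cells carried 7 of 7 measured macrophage markers, among them Csf1r, Cd68 and Spi1. They carried 0 of 6 epithelial and 0 of 5 fibroblast markers, while Dcn of the fibroblast list was above background on 1 array. Of 3 measured lymphocyte markers, Cd3d alone was detected. The arrays detected between 19143 and 19311 of 45598 probes, lay on 1 slide and were scanned in 1 run. The number of arrays limits the precision.

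Expression is given as a level, the log2 processed signal of a gene's brightest probe minus the 75th percentile of the detected probes on the same array. A level follows 1 gene between replicates, and levels of different genes rest on different probes and are not set against each other. Across the 37 detected genes, the median SD between replicates was 0.0958 log2 units, compared with 0.151 over the 8713 detected named genes. The SD lay below that all-gene median for 30 of the 37. Probes of brighter genes scatter less on these arrays, so each SD was also set against the value that limma's trend gives at that brightness. It was lower than this value in 25 of 37 genes (67.6%), compared with 53.4% of all detected genes, and the median ratio of measured to expected SD was 0.751, compared with 0.958. These shares are a description and were not tested.

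**Figure D1:**
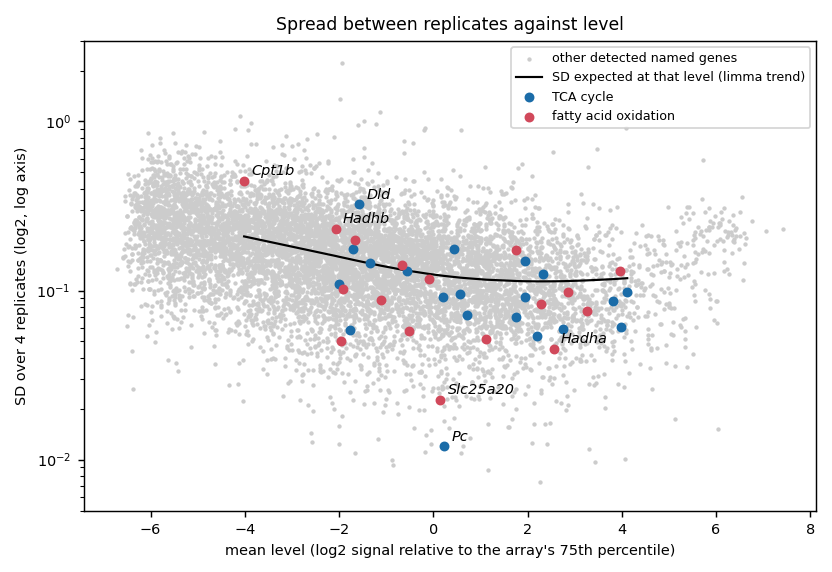
SD over 4 replicates (log2 units, log axis) against mean level (log2 signal relative to the array's 75th percentile) for the 8713 detected named genes (grey), with 37 detected TCA cycle (blue) and fatty acid oxidation (red) genes and the SD that limma's trend expects (black line, drawn over the range of the coloured points). Of the coloured points, 25 lie below the line; Cpt1b and Dld lie above it, and Pc and Slc25a20 lie far below it.

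No member of either pathway passed the test for excess variation between replicates. In limma, the variance left after fitting a gene's mean was set by F test against the prior variance at its intensity, with Benjamini-Hochberg adjustment over 8713 genes. The test called 0 of 37 members and 0.0115% of all detected genes (1 gene). At an unadjusted p under 0.05, it took 0 of 37 members and 375 of 8713 genes (4.304%). The smallest adjusted p among the members was 0.9688. With 4 arrays the test finds only large excess variation, and its silence on a gene does not show that the gene is steady. Between the lowest and the highest replicate, the median member differed 1.15-fold and the median detected gene 1.26-fold. A span over 2-fold was seen in 1 of 37 members, Cpt1b, and in 2.66% of all detected genes, which is a like share.

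**Figure D2:**
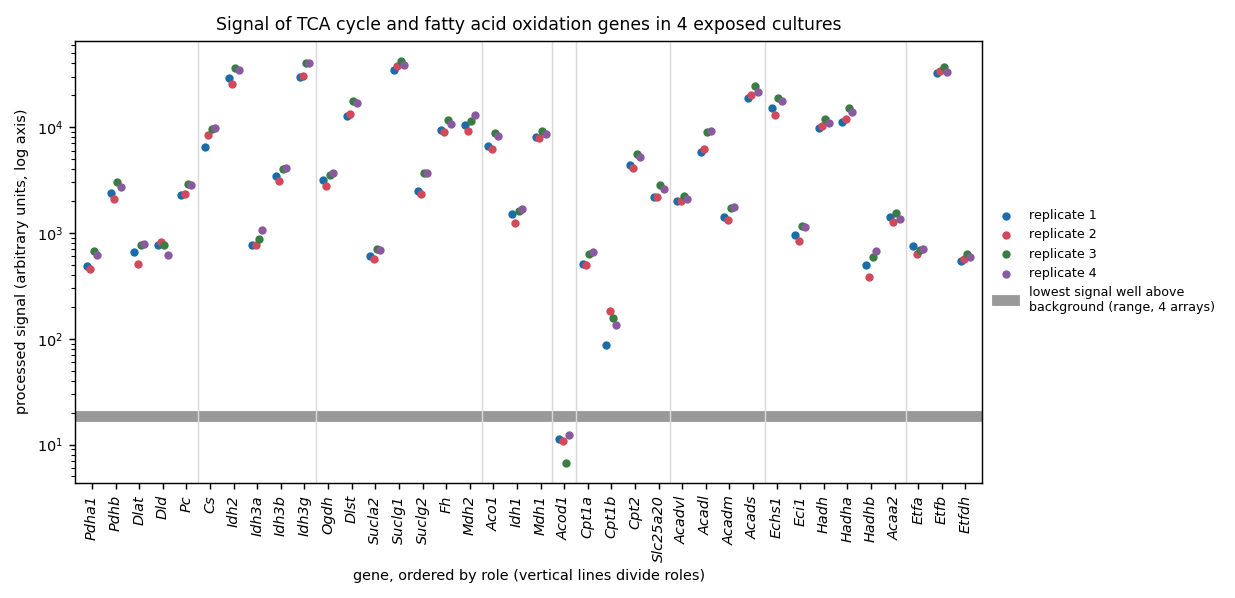
Processed signal (arbitrary units, log axis) of the brightest probe of each of the 38 genes in the 4 exposed cultures, with genes ordered by role and 1 point per replicate; the grey band spans the lowest signals well above background on the 4 arrays, 16.7 to 20.1. Acod1 alone lies under the band, and heights of different genes do not compare their expression because each has its own probe.

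The 4 stretches of rat promoter sequence shown here are those around a cyclic AMP response element and the bases between Hadha and Hadhb. Replicate values of these genes are given in the paragraphs on the cycle and on beta-oxidation, to set sequence beside signal. RefSeq windows (GRCr8 assembly) from 250 bases before to 50 bases after the gene start were found for 33 of the 38 genes. The cyclic AMP response element TGACGTCA, read on both strands, occurred in 3 of 33 windows (9.1%), those of Ogdh, Mdh2 and Acadm, compared with 1.8% of 33469 rat promoter windows. The stretches around it are printed 5′ to 3′ on the strand of the gene, with the element in capitals, and it begins 99, 117 and 103 bases before the respective gene start. They lie at chr14:85363906-85363965 (plus strand), chr12:26543925-26543984 (minus strand) and chr2:245542934-245542993 (minus strand).
Ogdh: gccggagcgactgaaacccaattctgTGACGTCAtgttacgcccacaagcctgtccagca
Mdh2: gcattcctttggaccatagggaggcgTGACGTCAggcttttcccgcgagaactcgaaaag
Acadm: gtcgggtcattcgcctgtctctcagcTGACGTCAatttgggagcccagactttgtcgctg

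Hadha and Hadhb, which encode the subunits of the mitochondrial trifunctional protein, lie head to head on chromosome 6. The bases between the gene ends of the RefSeq gene table are printed, at chr6:31907558-31907800. The start that the promoter window of Hadhb uses lies inside the annotated gene, so these bases are fewer than lie between the window starts. They are printed on the Hadha strand and in lower case throughout, since no CCAAT box, on either strand, lies between the genes.
Hadha-Hadhb: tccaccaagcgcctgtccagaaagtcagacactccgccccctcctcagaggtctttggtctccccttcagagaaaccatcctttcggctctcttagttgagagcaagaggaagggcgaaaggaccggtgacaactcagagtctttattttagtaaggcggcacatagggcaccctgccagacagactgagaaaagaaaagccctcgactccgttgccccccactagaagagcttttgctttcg

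The same windows were searched for 6 further motifs. The CCAAT box stood in 13 of 33 windows (39.4%, compared with 37.5% of all), the TATA box TATAAA in 3 (9.1% and 14.2%), those of Dld, Acod1 and Echs1, and the NF-kB motif in 2 (6.1% and 7.5%), those of Dlst and Acadm. The half-site TCAAGGTCA of the estrogen-related receptors, the NRF1 core GCGCATGCG and the direct repeat bound by PPAR receptors occurred in 0 of 33 windows and in 0.4%, 1.5% and 0.6% of all windows. All motifs were read on both strands, and a match is a run of letters, not a measured binding site. The shares, that of the cyclic AMP response element among them, were not tested against those of all windows.

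Pyruvate enters the cycle by a pair of routes. Pyruvate carboxylase (Pc) makes oxaloacetate from it, and the pyruvate dehydrogenase complex (Pdha1 and Pdhb for E1, Dlat for E2, Dld for E3) makes acetyl-CoA. Pc had the smallest SD of all 37 detected members. Its level was 0.22, 0.24, 0.22 and 0.25 in replicates 1 to 4 (mean 0.23 ± 0.0120, SD, n = 4), a span of 1.02-fold. Only 0.126% of the detected named genes had a smaller SD. Ranks by SD are those of the main processing. With normexp background correction, Pc spanned 0.0963 log2 units, compared with 0.0223 in the main setting. Idh3g (0.0406), Dlst (0.0587), Slc25a20 (0.0856) and Hadha (0.0860), among others, then spanned less than Pc.

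The E1 alpha subunit Pdha1 was at -2.02, -2.13, -1.87 and -1.95 (mean -1.99 ± 0.109). The E1 beta subunit Pdhb was at 0.26, 0.08, 0.29 and 0.18 (mean 0.20 ± 0.0919). Both E1 subunits had their lowest value in replicate 2. Dlat, the acetyltransferase, was at -1.57, -1.96, -1.70 and -1.61 (mean -1.71 ± 0.176), again lowest in replicate 2. Dld, the dihydrolipoyl dehydrogenase that pyruvate and 2-oxoglutarate dehydrogenase share, had the second largest SD of the detected members. It was at -1.35, -1.27, -1.70 and -1.96 (mean -1.57 ± 0.323), a span of 1.62-fold with an adjusted p of 0.9688 in the limma variance test. Replicates 1 and 2 were the higher ones for Dld and replicate 4 was the lowest, an order that the other subunits of the complex did not have. Relative to the other arrays, detected spots within 5 rows and columns of Dld had median log2 deviations of 0.14, 0.03, 0.03 and -0.13. The Dld spot itself was at 0.22, 0.33, -0.23 and -0.48 on that measure in replicates 1 to 4. Whether the place on the array has a part in the order was not tested.

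In the first steps of the cycle, citrate synthase (Cs) condenses acetyl-CoA with oxaloacetate, and isocitrate dehydrogenases oxidise isocitrate to 2-oxoglutarate. Cs was at 1.73, 2.07, 1.94 and 2.01 (mean 1.94 ± 0.149), with replicate 1 below the others. The NADP-dependent mitochondrial enzyme Idh2 was at 3.89, 3.69, 3.84 and 3.85 (mean 3.82 ± 0.0863), with replicate 2 the lowest. The NAD-dependent enzyme is built from Idh3a, Idh3b and Idh3g. Its catalytic subunit Idh3a was at -1.36, -1.37, -1.51 and -1.16 (mean -1.35 ± 0.146), with replicate 4 the highest. Idh3b (SD 0.0718) and Idh3g (SD 0.0605) each varied within 1.12-fold.

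From 2-oxoglutarate back to oxaloacetate, 7 genes were detected with SDs between 0.0539 (Fh, fumarate hydratase) and 0.177 (Suclg2). Ogdh, the E1 subunit of 2-oxoglutarate dehydrogenase, was at 0.69, 0.49, 0.49 and 0.61 (mean 0.57 ± 0.0958). Its replicates 1 and 4 were above replicates 2 and 3. Dlst, the E2 subunit, was at 2.68, 2.76, 2.81 and 2.80 (mean 2.76 ± 0.0592), with replicate 1 the lowest. Succinyl-CoA synthetase joins the alpha subunit Suclg1 to an ADP-forming (Sucla2) or a GDP-forming (Suclg2) beta subunit. Suclg2 was at 0.35, 0.23, 0.55 and 0.61 (mean 0.44 ± 0.177), with replicates 3 and 4 above replicates 1 and 2, and it spanned 1.31-fold. Sucla2 had an SD of 0.0588 and Suclg1 an SD of 0.0978. Mdh2, the mitochondrial malate dehydrogenase, was at 2.41, 2.22, 2.21 and 2.45 (mean 2.32 ± 0.126), with the same pair of replicates on top as in Ogdh.

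Some of these reactions also run in the cytosol, where Aco1 doubles as an iron-sensing RNA-binding protein, Idh1 supplies NADPH and Mdh1 works in the malate-aspartate shuttle. Idh1 was at -0.38, -0.68, -0.62 and -0.53 (mean -0.55 ± 0.131), with replicate 1 the highest. Aco1 and Mdh1 had SDs of 0.0699 and 0.0910.

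Acod1, the enzyme that makes itaconate, gave a processed signal of 11.3, 10.8, 6.77 and 12.2 in replicates 1 to 4. The dimmest probe well above background on the same arrays had a signal of 16.7, 18.0, 20.0 and 20.1. Every replicate of Acod1 was therefore under the lowest signal counted as detected on its own array, and replicate 3 was the lowest. Agilent's weaker flag, for a signal positive and significant against the local background, held on 4 of 4 arrays. The gene had 1 probe, so a transcript that this probe misses would not be seen.

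The mean deviation of the 20 detected genes of the cycle from their own means was 0.04, -0.04, -0.01 and 0.02 log2 units in replicates 1 to 4, a range of 0.0776. The same range over all 8713 detected genes was 0.0260. A mean over 20 genes scatters more than one over 8713 genes that also went into the scaling. The larger range of the cycle therefore does not show a shift of the pathway. Single genes went both ways around these means, with an SD over genes of up to 0.125 in a replicate. Replicate 2 was the lowest for 9 of the 20 genes and for 2389 of all 8713, and replicate 1 the highest for 8 of the 20 and for 3016 of 8713. Scaled by the 75th percentile of all probes, replicate 4 moved to -0.03 and replicate 3 to 0.01, while replicate 1 stayed above and replicate 2 below 0 under each scaling tried.

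**Figure D3:**
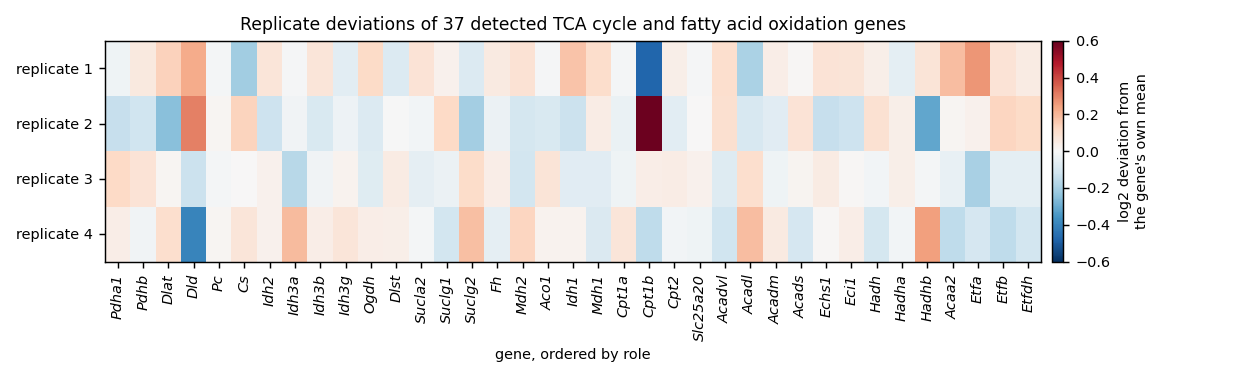
Deviation of each replicate from the gene's own mean (log2 units, colour scale from -0.6 to 0.6) for the 37 detected genes, ordered by role from pyruvate entry to the electron transfer flavoprotein, with 1 row per replicate. Cpt1b shows the widest contrast, between replicates 1 and 2, followed by Dld and Hadhb, while Pc and Slc25a20 are nearly colourless.

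Fatty acids enter mitochondria by the carnitine shuttle, in which Cpt1 isoforms at the outer membrane make acylcarnitine, Slc25a20 carries it across the inner membrane and Cpt2 turns it back into acyl-CoA. Both Cpt1 isoforms among the members, Cpt1a and Cpt1b, were detected on every array. The widely expressed isoform Cpt1a was at -1.96, -1.99, -1.98 and -1.88 (mean -1.95 ± 0.0506), a span of 1.08-fold. Cpt2 was at 1.16, 1.06, 1.17 and 1.11 (mean 1.12 ± 0.0516). Slc25a20 was at 0.15, 0.16, 0.18 and 0.13 (mean 0.15 ± 0.0227), a span of 1.04-fold and the second smallest SD of the detected members. Replicate 4 was the highest for Cpt1a, and the other replicates lay close together.

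The muscle isoform Cpt1b had the largest SD of the 37 detected members. Its signal was 87.4, 184, 158 and 134, and its level -4.49, -3.43, -3.98 and -4.17 (mean -4.02 ± 0.447). Replicate 1 was the lowest and replicate 2 the highest, 2.09-fold apart, and the limma variance test gave an adjusted p of 0.9688. Of the detected named genes, 97.3% had a smaller SD. Of 6 muscle markers, Actc1, Tnnt2 and Mb were well above background on 4 of 4 arrays, and Ckm, Myh6 and Myh7 on 0. Actc1 was at -0.16, -0.76, -0.58 and -0.70, highest in the replicate where Cpt1b was lowest. Tnnt2 was at -2.61, -2.38, -2.57 and -2.70, highest in replicate 2 as Cpt1b was, and Mb (SD 0.115) was highest in replicate 4. Whether these markers have a part in the spread of Cpt1b was not tested.

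The acyl-CoA dehydrogenases start each round of beta-oxidation and differ in the chain length they accept. Acadvl, for very long chains, was at 0.02, 0.01, -0.16 and -0.21 (mean -0.09 ± 0.116), with replicates 1 and 2 above 3 and 4. Acadl, for long chains, was at 1.57, 1.66, 1.86 and 1.95 (mean 1.76 ± 0.173), with replicates 3 and 4 above 1 and 2. The scaled levels of the very-long-chain and long-chain genes thus had opposite replicates on top. Before scaling, Acadvl gave signals of 1992, 1993.5, 2226 and 2080, higher in replicates 3 and 4 as those of Acadl were. Acadm, for medium chains, was at -0.47, -0.58, -0.53 and -0.45 (mean -0.51 ± 0.0579), and Acads, for short chains, had an SD of 0.0755.

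For Acadl the arrays carried 10 spots of the same probe, which show the scatter of spots on 1 array and not the error of labelling or hybridisation. The SD of these spots within an array was between 0.0562 and 0.103, and the SD between replicates, each a mean over spots, was 0.173. For Acads, with 10 spots, the SD within an array was 0.0613 to 0.109 and the SD between replicates 0.0755. Idh2 had 10 spots, with 0.0434 to 0.0895 within arrays and 0.0863 between replicates. Hadh had 10 spots, with 0.0468 to 0.0644 and 0.0830. Outlier-flagged spots were left out of these SDs, so they understate the scatter of all spots. For Acadl these were 2, 1 and 1 spots in replicates 1 to 3, and for Hadh 1 spot each in replicates 1 and 4. With flags ignored, the Hadh level in replicate 1 was 2.21, compared with 2.31. In that replicate, 1 Hadh spot lay in a dim array area. A mean over 10 spots has a smaller error than a single spot, so the within-array and between-replicate values are given side by side and were not tested against each other.

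The later steps of a round are hydration (Echs1), oxidation (Hadh) and thiolysis (Acaa2), and Hadha and Hadhb carry them out together on long chains. Eci1 moves double bonds of unsaturated chains into position for these steps. Hadha was at 2.50, 2.59, 2.59 and 2.54 (mean 2.56 ± 0.0453), a span of 1.07-fold and the third smallest SD of the detected members. Hadhb was at -1.99, -2.38, -2.08 and -1.83 (mean -2.07 ± 0.232), a span of 1.47-fold and the third largest SD of the detected members. Replicate 2, the lowest for Hadhb, was among the higher ones for Hadha. The difference between their patterns was not tested, and both had an adjusted p above 0.96 in the limma variance test. Acaa2 was at -0.48, -0.65, -0.71 and -0.81 (mean -0.66 ± 0.141), and Echs1, Eci1 and Hadh had SDs of 0.0978, 0.0882 and 0.0830.

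Electrons from the acyl-CoA dehydrogenases pass to the electron transfer flavoprotein (Etfa and Etfb) and then, through its dehydrogenase Etfdh, to ubiquinone. Etfa was at -1.40, -1.64, -1.86 and -1.77 (mean -1.67 ± 0.199). Etfb was at 4.04, 4.08, 3.90 and 3.80 (mean 3.95 ± 0.130). Etfdh was at -1.87, -1.81, -1.98 and -2.04 (mean -1.93 ± 0.102). In each of the 3 genes, the scaled levels of replicates 1 and 2 were both above those of replicates 3 and 4. The 75th percentile signals used for scaling were split by the same replicates, 1969.6 and 1980.1 against 2493.2 and 2402.5. Before scaling, Etfa and Etfb did not split this way, and Etfdh gave 537.5, 564, 631 and 586, higher in replicates 3 and 4. Relative to the other arrays, detected spots within 5 rows and columns of Etfb had median log2 deviations of 0.12, 0.02, -0.10 and -0.03. The Etfb spot itself was at 0.15, 0.24, -0.07 and -0.16 on that measure in replicates 1 to 4. Around Etfa and Etfdh, the neighbours lay between -0.0607 and 0.0683. Whether the scaling or the place on the array has a part in the split was not tested. The mean deviation of the 3 genes was 0.13, 0.09, -0.10 and -0.12 log2 units in replicates 1 to 4, a range of 0.254. Among the other roles, that range ran from 0.0157 (acyl-CoA dehydrogenases) to 0.237 (carnitine shuttle). Means over so few genes scatter more than those over a whole pathway. Adjusted p-values of the limma variance test were 0.9688, 0.9724 and 0.9944, so none of the 3 passed it. After quantile normalization Etfb was at 3.93, 4.06, 3.94 and 3.89, and its replicate 3 no longer lay below replicate 1.

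Across the 17 genes of fatty acid oxidation, all detected, the mean deviation was 0.02, 0.02, -0.01 and -0.03 log2 units in replicates 1 to 4, a range of 0.0462. With the 75th percentile taken over all probes the range was 0.115, and with the median of detected probes 0.0829.

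Of the members, 4 had more than 1 probe, and every probe of each was detected on 4 of 4 arrays. The probes of Hadha disagreed most on the replicates. Its brightest and second probe had SDs of 0.0453 and 0.0384, while the dimmest probe, with signals of 701, 1287, 1077 and 1305, had an SD of 0.380 and spanned 0.87 log2 units. The brightest Dlst probe had an SD of 0.0592. The other Dlst probes, listed under another RefSeq transcript, had SDs of 0.196 and 0.237, with their highest values in different replicates. Whether the transcript has a part in this was not tested. The Dlat probes had SDs of 0.176 and 0.111 and shared replicate 2 as the lowest. The Pdha1 probes had SDs of 0.109, 0.115 and 0.0344. The small SDs of Hadha and Dlst are thus those of their brightest probes.

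**Figure D4:**
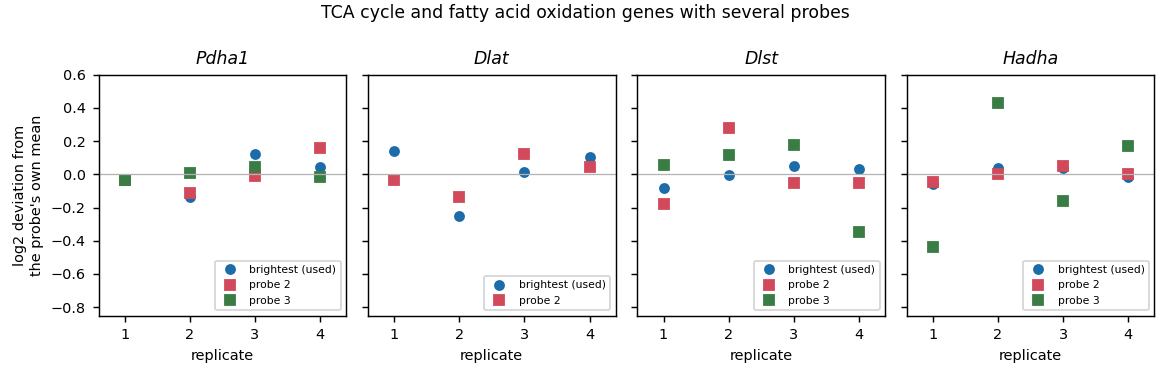
Deviation of each probe from its own mean over 4 replicates (log2 units) for the 4 genes with several probes; circles show the brightest probe, whose values are used, and squares the other probes, numbered by brightness. For Hadha, 2 probes stay near 0 and the third spans 0.87, whereas both Dlat probes are lowest in replicate 2.

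Genes that work beside these enzymes were followed from lists of 76 genes, of which 69 were measured and 59 detected. The limma variance test called 0 of the 59, with 0 also at an unadjusted p under 0.05, and 0 spanned more than 2-fold. Over all detected genes the shares were 0.0115%, 4.304% and 2.66%, small enough that counts of 0 in 59 genes show little. All 10 measured of 12 listed further enzymes of pyruvate and the cycle, such as the succinate dehydrogenase subunits, were detected, with a median SD of 0.127. The largest SDs among them were those of the mitochondrial pyruvate carrier. Mpc1 was at 1.84, 1.76, 1.40 and 1.44 (SD 0.222), and Mpc2 at 2.14, 2.17, 1.71 and 1.76 (SD 0.245). Both carrier subunits were higher in replicates 1 and 2 than in replicates 3 and 4.

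Of 7 kinases and phosphatases that switch pyruvate dehydrogenase off and on, 5 were detected. Pdk4, the kinase induced by fasting and by PPAR receptors, was above background on 0 arrays, and the phosphatase regulator Pdpr on 2 of 4. Among the detected genes of that list, Pdk3 and Pdp2 had the largest SDs, 0.233 and 0.162. All 8 measured of 10 carriers and anaplerotic enzymes were detected, with the largest SDs in the dicarboxylate carrier Slc25a10 (0.182) and the citrate carrier Slc25a1 (0.154).

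Acyl-CoA synthetases of the Acsl type activate fatty acids before the shuttle, and Acss1 and Acss2 activate acetate. Of these 7 synthetases, 5 were detected, and Acsl6 and Acss1 were not above background on any array. Acsl4 and Acsl3, with the largest among the detected ones, had SDs of 0.288 and 0.277. All 12 measured of 15 further mitochondrial oxidation enzymes were detected, with the largest SDs in the methyltransferase Etfbkmt (0.262) and the propionyl-CoA carboxylase subunit Pcca (0.171). In peroxisomes, where very long chains are shortened, 10 of 13 genes were detected and Acox2, Acox3 and Ehhadh were above background on 0 arrays. Among the detected peroxisomal genes, Crot (SD 0.320) and Acaa1b (SD 0.231) had the largest SDs.

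Of 12 regulators of these pathways, 9 were detected, among them the nuclear receptors Esrra, Pparg and Ppard. The coactivator Ppargc1a and Acacb, which makes the malonyl-CoA that inhibits Cpt1, were above background on 0 arrays. The receptor Ppara was above background on 1, with signals of 6.18, 4.50, 28.7 and 4.83. Acaca, the cytosolic maker of malonyl-CoA, had the largest SD among the detected genes of these lists. It was at -4.97, -4.12, -3.99 and -3.99 (SD 0.473), a span of 1.98-fold, with replicate 1 the lowest as for Cpt1b. Ppargc1b followed with an SD of 0.389.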

How the data were processed

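Total RNA of 4 exposed cultures was labelled with Cy3 and hybridised to 1-colour Agilent rat arrays, 1 array per replicate, per the labels' protocols. The deposited intensity of each spot is the background-subtracted processed signal of Feature Extraction 11.0.1.1, per the file headers and the submitters' processing notes. Whether the authors scaled arrays to each other is not stated in those sources. 

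Of 62976 spots, 4259 control spots and all outlier-flagged spots were left out, and replicate spots of a probe were averaged as log2. No spot was saturated. Of the 82 spots of these genes on each array, 1 to 3 carried an outlier flag. A probe was detected where, on 4 of 4 arrays, most of its spots carried the well-above-background flag. Each array was scaled by the 75th percentile of the 39.3% of probes detected on all arrays, at signals of 1970 to 2493. A gene is represented by its brightest probe, detected ones first. Accessions were matched without versions to RefSeq genes of GRCr8, naming 21109 of 45598 probes. The array headers name another build, so array coordinates are not given.

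Variation was tested with limma 3.58.1 (intercept fit, eBayes with trend, adjusted p threshold 0.05) in R 4.3.3 with the data.table package (version 1.17.8), and the script was tested on simulated data. Figures were drawn with matplotlib 3.10.9 and pandas 2.3.3 in Python 3.11.15. P-values set a gene's spread between these 4 cultures against the spread of genes of like intensity on the same arrays. Variation that all genes share is not seen by them. All arrays shared a slide and a scan run, so neither could be tested as a batch, and position on the slide and replicate cannot be told apart.

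The members and lists were chosen with earlier results of these data known. Replicate values are given for 12 preset genes, the 5 detected members with the largest and the 3 with the smallest SD, members not detected or with a replicate far from the others, and others chosen after their values were seen. Of the side lists, genes not detected and the 2 detected ones with the largest SD are named. Alternatives covered detection flags, scaling, background correction, probes per gene, outlier flags, dim array areas, filters, the variance model and left-out replicates. Background correction by normexp (offset 50) was planned on mean and run on median spot signals. Naming by a gene name column and protein identities between isoenzymes were not run here.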

Additional observations from a re-analysis of the deposited data

Results flagged for a closer look

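The level of Acod1 was -7.45, -7.51, -8.52 and -7.62 in replicates 1 to 4, with replicate 3 far below the others. Its gap to the nearest other replicate was 0.838 of the whole range, above Dixon's critical value for 4 samples. The 4 signals lay under the lowest signal well above background on their arrays, so the gap is between values below detection. Of 40 sets of replicate values tested this way, 1 passed, and chance alone passes about 2.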

How the results depend on the processing

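The count of detected genes stayed at 37 under other detection rules, with outlier flags ignored and without each replicate in turn, except that the positive-and-significant flag gave 38 by adding Acod1. The variance test called 0 of these genes under every alternative run, while calls among all genes ran from 0 to 9. The median SD ranged from 0.0701 to 0.113. The count spanning over 2-fold was 0 with normexp, where 0.597% of all tested genes did so. It was 2 (Acod1 and Cpt1b) without a filter on dim probes and with the positive-and-significant flag. The shares of all tested genes were then 15.3% and 8.73%. It ranged from 0 to 1 when replicates were left out, and was 0 without replicate 1 or without replicate 2, the extremes of Cpt1b. Of all tested genes, 1.2% and 1.46% then spanned over 2-fold, and 2.07% and 2.1% without replicate 3 or 4. The range of the mean deviation rose with the 75th percentile over all probes to 0.117 for the TCA cycle and 0.115 for fatty acid oxidation, and with the median of detected probes to 0.0829 for the latter. The cause was not tested. Of the comparisons of a gene's span between the main setting and an alternative, 365 moved by less than the gene's own SD and 42 by more. With the 75th percentile over all probes the mean deviation changed sign in replicate 3 for both pathways (-0.01 to 0.01) and in replicate 4 for the TCA cycle (0.02 to -0.03). The median of detected probes and normexp also put replicate 4 below 0 for the cycle. No paired analysis was possible because there is 1 group. Naming by a gene name column was not run. The number of arrays and the signal over background limit what dim genes such as Cpt1b and Acod1 can show.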
